A study of Mus musculus with 12 samples.

Results

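The genes described here encode the machinery that docks, primes and fuses secretory granules with the plasma membrane. They were chosen by gene symbol, with earlier results of these data known. The symbols were those of the synaptotagmins and synaptotagmin-like proteins (Syt, Sytl), syntaxins (Stx), syntaxin-binding proteins (Stxbp), VAMPs, Snap23, Snap25 and Snap29. The Munc13 (Unc13) and RIM (Rims) families, Rab3a to Rab3d, Rab27a, Rab27b and the Doc2 genes were also included. A gene also had to hold at least 50 read counts summed over the 12 libraries. Of the 37991 genes in the count table, 72 carried such a symbol and 67 reached the minimum. The 5 that did not were Stxbp3b (47 counts), Stx19 (17), Unc13c (17), Syt8 (2) and Syt10 (0), whereas the members nearest to the minimum were Rims4 (155) and Doc2a (165). All 67 members passed the filter on low counts and were tested, and 1 of them, Vamp7-ps, is a pseudogene.

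Bulk RNA-seq had been performed on islets of male C57BL/6 mice. Tg7 mice overexpress miR-7 in β-cells, and their littermate wild-type (Wt) controls carry no transgene. Both genotypes were sampled at 2 weeks (2w) and at 12 weeks (12w) of age, with 3 libraries in each of the 4 groups. The Wt islets at 12w are numbered replicates 1, 2 and 4. Each library was made from islets pooled over several animals, so the p values measure the spread between pools and not between single mice. The sources used here do not name the promoter that drives the transgene. Mature miR-7 is too short for this assay: the 3 rows of its precursor genes held between 0 and 30 counts per library, which does not check the transgene.

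Insulin is stored in dense-core granules that are carried to the plasma membrane by Rab27a and Rab3 GTPases. The granules are held there by effectors of these GTPases, among them granuphilin (Sytl4) and full-length RIM proteins. Munc13 and Munc18 proteins then prepare the SNARE complex, which syntaxin-1A and SNAP-25 form on the plasma membrane side and VAMP2 on the granule side. Many synaptotagmins and Doc2 proteins bind calcium and couple its entry to fusion. The main question of the comparison is how the transcripts of these steps differ between Tg7 and Wt islets before and after the mice become hyperglycaemic.

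miR-7 is thought to act through short matches to its seed in the 3′ untranslated region (UTR) of messenger RNAs. The mature sequences of miR-7a and miR-7b are shown because the transgene raises miR-7. They come from RefSeq (GRCm38.p6), with the seed, bases 2 to 8, in capitals.
miR-7a-5p: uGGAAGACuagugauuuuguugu
miR-7b-5p: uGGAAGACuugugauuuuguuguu
Both share 1 seed. The longest annotated 3′ UTR of each gene (Ensembl annotation of NCBIM37, mm9) was searched on the transcript strand for GTCTTCCA (8mer), GTCTTCC without the final A (7mer-m8) and TCTTCCA without the first G (7mer-A1). Of the 64 members with an annotated 3′ UTR, 17 (26.6%) held at least 1 match and 4 (6.25%) held an 8mer. Over all 14403 tested protein-coding genes with a 3′ UTR the shares were 24.9% and 3.94%. The UTRs of the members had a median length of 1935.5 bases against 1152 for all these genes. The 8mers of the members, and the matches in members that were upregulated in Tg7 islets, are shown with 8 flanking bases on each side and the match in capitals, so that the direction of each gene can be set beside its site.
Doc2b (8mer, chr11:75582943-75582950, minus strand): acagtcccGTCTTCCAacccagag
Syt2 (8mer, chr1:136648731-136648738, plus strand): gatggtggGTCTTCCAggcagggc
Stxbp6 (8mer, chr12:45954676-45954683, minus strand): aaatatttGTCTTCCAaaactgga
Stxbp6 (8mer, chr12:45954310-45954317, minus strand): tcctgcttGTCTTCCAccaaacac
Syt15 (8mer, chr14:35041732-35041739, plus strand): ggcattctGTCTTCCAcccagtag
Syt6 (7mer-m8, chr3:103439041-103439047, plus strand): tgctttgtGTCTTCCcacccctg
Rab3b (7mer-m8, chr4:108615194-108615200, plus strand): tgcagaggGTCTTCCcccatctt
Rab3c (7mer-m8, chr13:110849098-110849104, minus strand): acacatttGTCTTCCcaggtctt
Syt11 (7mer-A1, chr3:88549828-88549834, minus strand): ctgatagcTCTTCCAtcccatca
The other members with a match were Rab27b, Rab3d, Rims1, Snap29, Stx8, Stxbp2, Syt1, Syt13 and Syt7. Sytl4, Rims3 and Syt4, which were lower in Tg7 islets at both ages, held none. A match describes the letters of this window and is not by itself a site in use.

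The libraries held between 11610697 and 17515758 counts on genes, and values are given as CPM, the counts of a gene scaled to the library total with TMM factors. The members together made up 0.422% to 0.524% of the counts in every library except 2 of the Wt libraries at 12w (0.347% and 0.404%). On the TMM scale the members summed to 3555 to 3899 CPM in Tg7 islets against 4806 to 4887 in Wt islets at 2w. At 12w the sums were 4297.5 to 4437 in Tg7 against 5050 to 5637 in Wt islets, so the groups did not overlap at either age. Library 4 of the Wt islets at 12w stood apart from the others of its group, with 14.8% of its counts on Ins1 and Ins2 against 29.99% and 27.01%, and results of members that turn on it are also given without it. β-cell markers were lower in Tg7 islets: their summed level was 27666 to 52740 CPM against 111030 to 180711 in Wt islets at 2w, and 100385 to 105727 against 198990 to 482238 at 12w, and 8 of 10 were called lower at each age. The sum of 7 stellate and fibroblast markers was 345 to 459 CPM in Tg7 islets against 192 to 272 at 2w, and 219 to 250 against 27.3 to 32.1 at 12w, and 5 and 7 of them were called higher. Endothelial markers at 12w summed to 621 to 679 CPM in Tg7 islets and 307 to 399 in Wt islets, with 5 of 6 called higher at 12w and 0 of 6 at 2w. α-cell markers differed less, with 1 of 8 called higher at each age. No δ-cell or acinar marker was called at either age, and acinar markers summed to at most 29.9 CPM in any library. Of the tested markers of PP cells, 1 of 2 was called higher at 2w and 0 at 12w, of ducts 0 and 2 of 4, of Schwann and neural cells 0 and 3 of 6, and of lymphocytes and mast cells 1 of 2 at each age. Of 6 macrophage markers 1 was higher at 2w and 1 lower at 12w. In bulk RNA, fewer cells of a type and less RNA per cell cannot be told apart.

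At 2w, 11 of the 67 members (16.4%) passed the test between genotypes, 3 upregulated (4.48%) and 8 downregulated (11.9%) in Tg7 islets. The genome background was 10.6% of 15961 tested genes, with 6.07% upregulated and 4.55% downregulated. At 12w, 23 members (34.3%) were called, 9 upregulated (13.4%) and 14 downregulated (20.9%), beside a background of 23.6% (12.5% up and 11.2% down). All adjusted p values are from edgeR's quasi-likelihood test, adjusted by Benjamini-Hochberg across the 15961 tested genes, and a gene is called when the value is under 0.05. With library size alone in place of TMM factors, the genome-wide median log2 fold change moved up by 0.17 at 2w and 0.44 at 12w, and the split of the members became 4 up and 5 down at 2w and 20 up and 6 down at 12w. Without the Wt library 4 at 12w, 17 members were called at 2w and 23 at 12w. The share of all tested genes called was not counted for these or the other alternative settings. Their counts therefore cannot be set against the background given above. Changes below are relative to the TMM scale. The median log2 fold change of the members was −0.13 at 2w and −0.11 at 12w, against 0.03 and −0.01 for all tested genes. The median absolute change was 0.30 and 0.37 on the log2 scale, against 0.29 and 0.35.

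**Figure D1:**
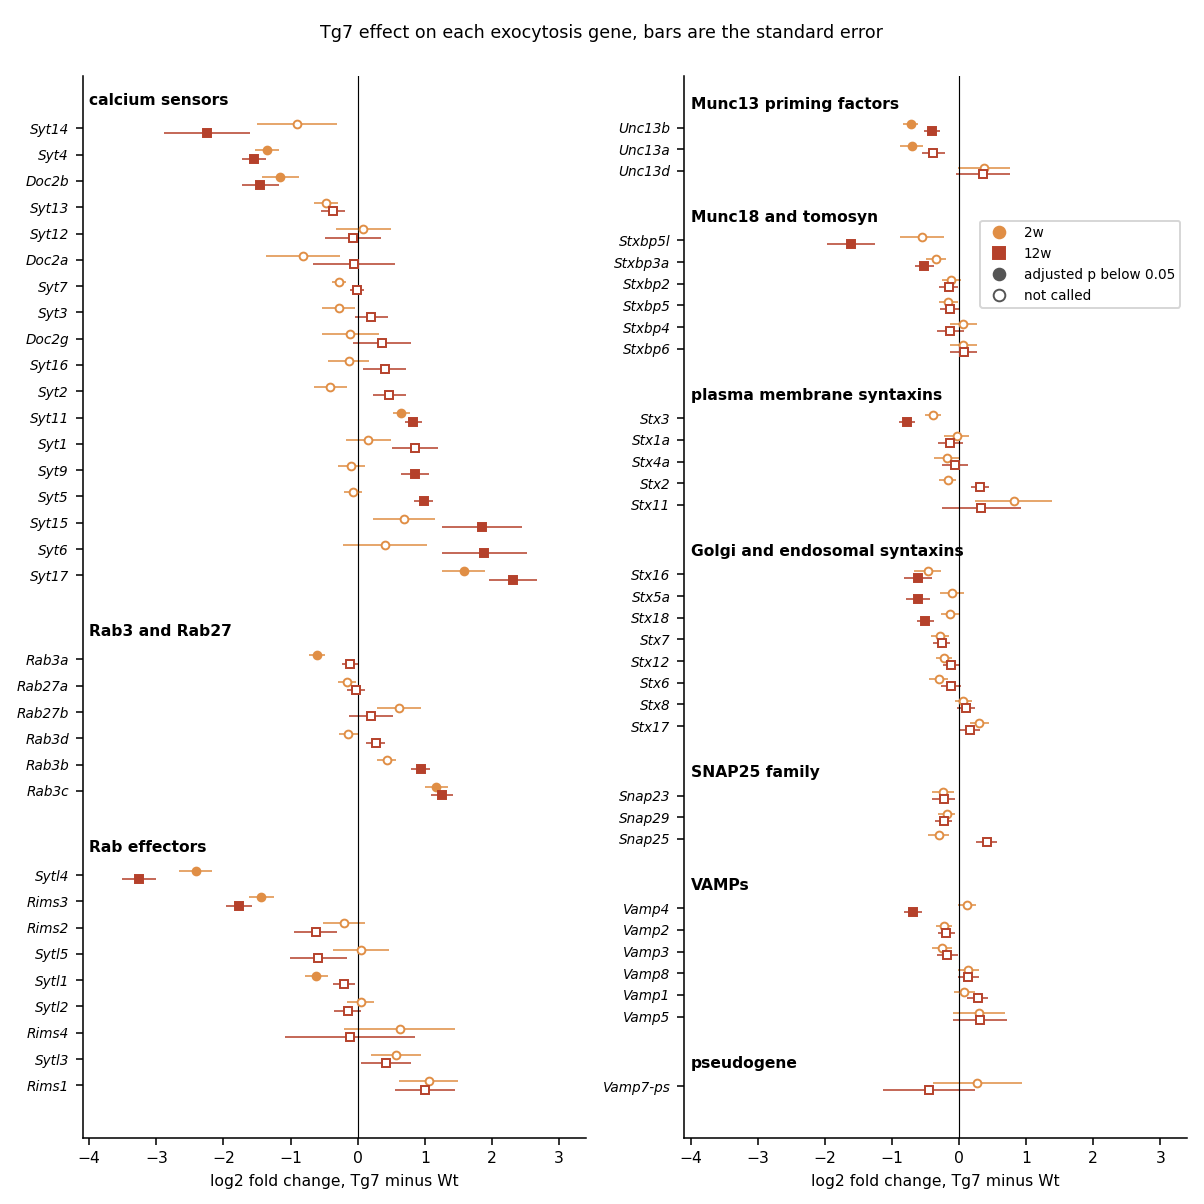
Log2 fold change of Tg7 minus Wt islets for 65 of the 67 members, grouped by role, with circles for 2w and squares for 12w. Bars are standard errors and filled symbols are members called at adjusted p under 0.05. Sytl4 lies farthest to the left at both ages (−2.42 and −3.26), and the SNAP25 family has open symbols only.

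In all, 8 members were called at both ages, and each had the same direction at both. The down group held Sytl4, Rims3, Syt4, Doc2b and Unc13b, and the up group Rab3c, Syt11 and Syt17. These 8 are 11.9% of the members, beside 6.79% of all tested genes called in 1 direction at both ages. A further 18 members were called at 1 age, and 41 at neither. At 2w the 3 Tg7 libraries lay on 1 side of the 3 Wt libraries for 32 members (47.8%, background 35.9%), and at 12w for 25 members (37.3%, background 37.1%).

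**Figure D2:**
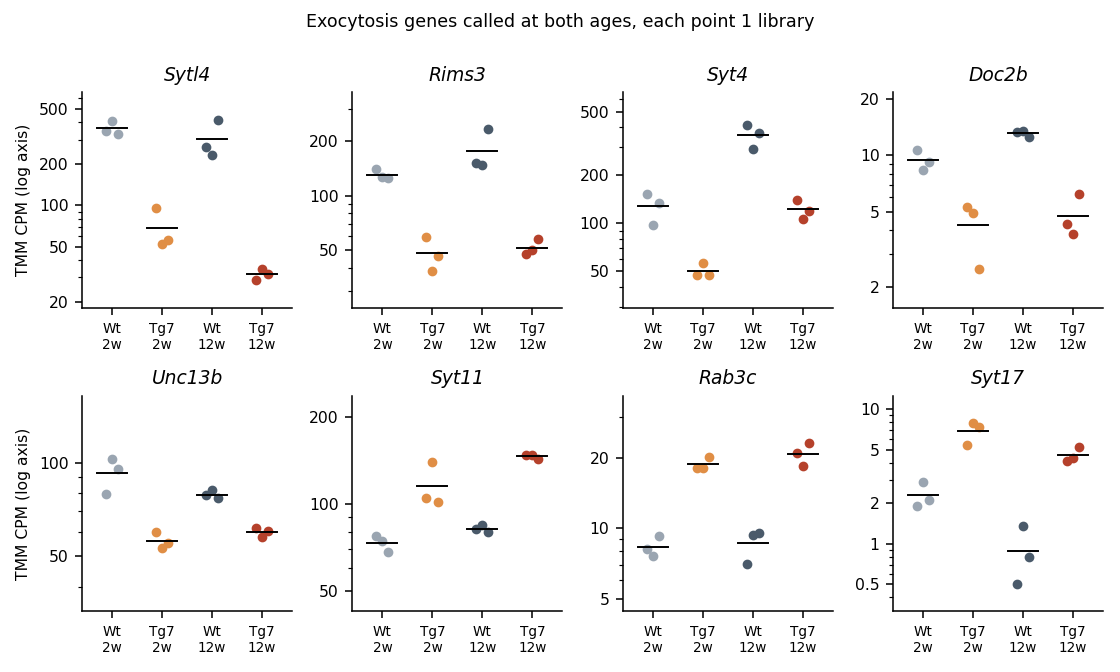
CPM of the 8 members called at both ages on log axes, 1 point per library, with a bar at the mean of 3 libraries. In all 8 panels the Tg7 points of an age lie on 1 side of the Wt points of that age, as for Sytl4, with 28.8 to 34.4 CPM in Tg7 and 231 to 413 in Wt islets at 12w.

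The Sytl and RIM genes held the largest decrease among the members. Sytl4, which encodes granuphilin, a Rab27a effector that docks insulin granules, lies on chromosome X (chrX:130470924-130516351, mm9, minus strand). It measured 347, 413 and 332 CPM in the Wt libraries at 2w and 95.8, 52.5 and 56.0 in the Tg7 libraries. At 12w it measured 264, 231 and 413 CPM in Wt and 28.8, 34.4 and 31.9 in Tg7 islets. No Tg7 library reached the lowest Wt library at either age. The log2 fold change was −2.42 ± 0.25 (SE, n = 3 per group, adjusted p = 4.53e-05) at 2w and −3.26 ± 0.26 (adjusted p = 1.7e-06) at 12w. Without the Wt library 4 the value at 12w was −2.96. Per kilobase of exon, Sytl4 was the member with the 8th highest level in Wt islets at 12w (59.1 CPM per kb) and the 34th in Tg7 islets (6.19 CPM per kb). Its share of the summed level of the 5 Sytl genes was 72.7% ± 2.47 (SD, n = 3) in Wt and 25.5% ± 2.10 in Tg7 islets at 12w, and 78.7% ± 1.46 and 42.2% ± 6.75 at 2w.

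Rims3 encodes a short RIM protein (chr4:120527421-120569184, plus strand), a family that scaffolds the release site. Its values at 2w were 140, 127 and 124 CPM in Wt and 59.3, 38.6 and 46.6 in Tg7 islets. At 12w they were 150, 148 and 231 in Wt and 48.0, 50.02 and 57.6 in Tg7 islets. The groups did not overlap at either age, and the log2 fold changes were −1.44 ± 0.19 (adjusted p = 0.000343) and −1.77 ± 0.19 (adjusted p = 2.23e-05). The RIM family as a whole summed to 27.5 ± 8.98 CPM per kb in Wt and 10.3 ± 0.73 in Tg7 islets at 12w. Within it, the share of Rims3 was 81.4% ± 4.84 in Wt and 63.3% ± 4.37 in Tg7 islets, with most of the rest from Rims2. Rims2, the RIM protein best known in β-cells, was not called: it measured 22.6, 13.9 and 46.3 CPM in Wt and 16.4, 21.8 and 15.9 in Tg7 islets at 12w, where the groups overlapped (log2 fold change −0.62 ± 0.32, adjusted p = 0.186). Its 12w value rests on the Wt library 4, without which it was 0.0038.

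Sytl1, another Rab27 effector, was called at 2w only, with 15.96, 16.2 and 15.2 CPM in Wt and 8.80, 12.5 and 9.59 in Tg7 islets (log2 fold change −0.62 ± 0.17, adjusted p = 0.0342). At 12w its log2 fold change was −0.21 ± 0.17 (adjusted p = 0.409), and the change between ages was not called (0.41 ± 0.24, adjusted p = 0.463). The 2w call was kept under 12 of 21 other settings. Rims1, a full-length RIM protein, was not called, although its groups did not overlap at either age: it measured 0.415, 1.77 and 1.596 CPM in Wt and 2.61, 2.598 and 2.63 in Tg7 islets at 2w, and 1.13, 1.35 and 1.33 against 2.20, 2.71 and 2.80 at 12w (log2 fold changes 1.06 ± 0.44 and 1.001 ± 0.45). The remaining Sytl and RIM genes, Rims4, Sytl2, Sytl3 and Sytl5, were called at neither age. Of the 9 Sytl and RIM genes, 3 were lower at 2w and 2 at 12w, and none was called higher. The 22.2% called at 12w is near the 23.6% of all tested genes, while 33.3% at 2w stands beside 10.6%.

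**Figure D3:**
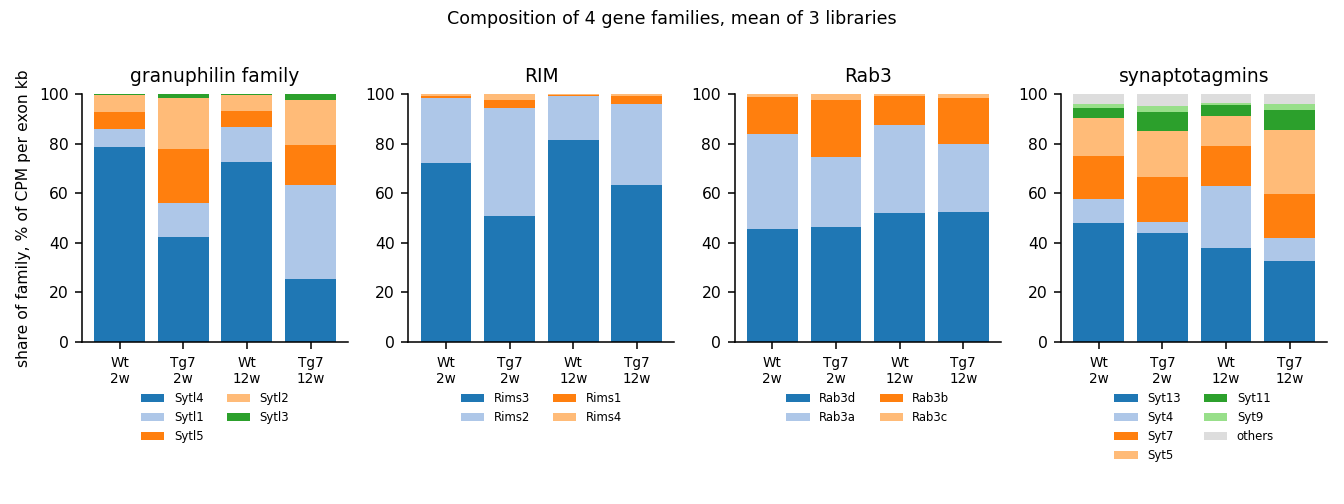
Mean share of each gene in the summed CPM per exon kilobase of the granuphilin (Sytl), RIM, Rab3 and synaptotagmin families, 1 bar per group of 3 libraries. Genes under 2% in every group are joined as others. The Sytl4 share falls from 78.7% to 42.2% at 2w and from 72.7% to 25.5% at 12w, and the Rab3b share is 15.01% and 11.6% in Wt against 22.7% and 18.3% in Tg7 islets.

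The 6 Rab3 and Rab27 genes encode Rab GTPases. Rab3c (chr13:110844395-111071109, minus strand) was upregulated at both ages. It measured 8.13, 7.59 and 9.31 CPM in Wt and 18.2, 18.1 and 20.2 in Tg7 islets at 2w, and 7.06, 9.37 and 9.53 against 21.0, 18.5 and 23.1 at 12w. The groups did not overlap (log2 fold changes 1.17 ± 0.17 and 1.26 ± 0.17, adjusted p = 0.000681 and 0.000141). Rab3b (chr4:108551668-108615929, plus strand) rose at 12w from 57.0, 46.9 and 37.9 CPM in Wt to 84.9, 103 and 83.5 in Tg7 islets (log2 fold change 0.94 ± 0.15, adjusted p = 0.00043). At 2w it measured 46.3, 51.8 and 46.0 against 68.7, 64.6 and 61.3, without overlap but short of the threshold (0.43 ± 0.14, adjusted p = 0.0693). That value was called in 7 of 21 other settings, among them without the Wt library 4 at 12w (adjusted p = 0.0184).

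Rab3a (chr8:73278578-73282576, plus strand), the isoform best known from synaptic vesicles, fell at 2w from 75.2, 77.6 and 80.3 CPM in Wt to 45.8, 60.1 and 48.1 in Tg7 islets (log2 fold change −0.60 ± 0.12, adjusted p = 0.00639), a call lost with library size alone (−0.44, adjusted p = 0.0564). It overlaps Mpv17l2 on the opposite strand. At 12w its groups were 92.1, 100 and 85.1 against 84.0, 84.8 and 87.8, which overlap (−0.11 ± 0.12, adjusted p = 0.561). The difference between the effects at the 2 ages was 0.49 ± 0.17 and did not pass (adjusted p = 0.206). Rab27a, the GTPase bound by granuphilin, measured 175, 184 and 253 CPM in Wt and 203, 209 and 191 in Tg7 islets at 12w (log2 fold change −0.02 ± 0.14, adjusted p = 0.94). At 2w it measured 186, 190 and 193 CPM in Wt and 184, 165 and 162 in Tg7 islets, without overlap (−0.15 ± 0.14, adjusted p = 0.511). Rab3d was not called at either age (−0.14 ± 0.15 and 0.27 ± 0.15), but its 12w value was 0.44 and called without the Wt library 4 (adjusted p = 0.0198). Rab27b was not called either and held 2.61 to 7.50 CPM in all libraries. The level per kilobase of the 4 Rab3 genes together was 140 ± 0.84 CPM per kb in Tg7 and 117 ± 6.43 in Wt islets at 12w. At 2w it was lower in Tg7 islets, at 81.2 ± 5.74 against 90.9 ± 5.53 CPM per kb in Wt islets.

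Among the 18 synaptotagmin and Doc2 genes, 2 rose and 2 fell at 2w, and 6 rose and 3 fell at 12w. Not all of their proteins are thought to bind calcium, as given below for Syt11 and Syt17. The called share of the 18 genes was 22.2% at 2w and 50% at 12w, beside 10.6% and 23.6% of all tested genes. At 12w, 3 of the calls (Syt6, Syt14 and Syt15) were each lost in 6 to 9 of 21 other settings. Synaptotagmin-4 (Syt4, chromosome 18), known from studies of β-cell maturation, was lower at both ages. It measured 152, 97.96 and 134 CPM in Wt and 47.0, 56.3 and 47.0 in Tg7 islets at 2w. At 12w the values were 416, 291 and 369 in Wt and 141, 107 and 120 in Tg7 islets. All Tg7 libraries lay below all Wt libraries of their age (log2 fold changes −1.36 ± 0.18 and −1.55 ± 0.18, adjusted p = 0.000393 and 4.3e-05). Doc2b, a calcium sensor that binds Munc18 and syntaxin proteins (chr11:75582468-75609551, minus strand), is expressed at a lower level. It measured 10.6, 8.40 and 9.20 CPM in Wt and 5.34, 4.94 and 2.48 in Tg7 islets at 2w, and 13.4, 13.5 and 12.5 against 4.34, 3.82 and 6.24 at 12w. Its groups did not overlap (−1.15 ± 0.28 and −1.45 ± 0.28, adjusted p = 0.0176 and 0.00198), and the 2w call was lost without Wt library 1 or 3 (largest adjusted p 0.072).

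Syt5 (chr7:4491370-4498169, minus strand), a calcium-binding synaptotagmin, was the member whose response to the genotype differed between ages. At 2w it measured 91.4, 91.3 and 93.5 CPM in Wt and 80.4, 92.5 and 91.6 in Tg7 islets, which overlap (log2 fold change −0.06 ± 0.14, adjusted p = 0.812). At 12w it measured 67.9, 96.1 and 67.2 in Wt and 154, 156 and 148 in Tg7 islets, without overlap (0.98 ± 0.14, adjusted p = 0.000188). The difference of the effects, 12w minus 2w, was 1.05 ± 0.19 (adjusted p = 0.0175). It was called in 1 of 67 members (1.49%) and in 1.18% of all tested genes, so the share of the members is near the background. Without the Wt library 4 at 12w it was called in 5 members. The call was lost without Wt library 2 or 3 at 2w, or without Tg7 library 1 or 2 at 12w (adjusted p between 0.0516 and 0.0593, log2 difference 1.04 to 1.06). In Tg7 islets at 12w, Syt5 had the 2nd highest level per kilobase of all members (87.3 CPM per kb), against the 11th in Wt islets (44.1). Its share of the summed level of all synaptotagmins at 12w was 12.1% ± 3.65 (SD) in Wt and 25.7% ± 0.65 in Tg7 islets, while that of Syt4 was 24.9% ± 5.48 and 9.22% ± 1.155. Syt9, its close relative and a calcium sensor of insulin-secreting cells, also rose at 12w, from 16.5, 10.4 and 21.5 CPM in Wt to 29.3, 30.5 and 28.3 in Tg7 islets (0.86 ± 0.21, adjusted p = 0.00871), and its difference between ages was 0.95 ± 0.29 (adjusted p = 0.145).

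Syt11 and Syt17, synaptotagmins thought not to bind calcium, were upregulated at both ages. Syt11 measured 77.4, 74.8 and 68.2 CPM in Wt and 105, 140 and 101 in Tg7 islets at 2w, and 81.8, 84.5 and 79.9 against 148, 148 and 143 at 12w (log2 fold changes 0.65 ± 0.13 and 0.83 ± 0.13, adjusted p = 0.00544 and 0.000393). Syt11 overlaps a pseudogene on the other strand, so reads of the 2 cannot be told apart if strand was not used. The same holds for Rab3a and Stx18 and for the uncalled Snap29, Vamp1, Sytl3 and Doc2a, which overlap genes on the opposite strand. Syt17 was a low transcript, at 1.90, 2.87 and 2.13 CPM in Wt and 5.39, 7.86 and 7.401 in Tg7 islets at 2w, and 0.504, 1.35 and 0.800 against 4.12, 4.37 and 5.26 at 12w. Its log2 fold changes were 1.58 ± 0.32 and 2.32 ± 0.36 (adjusted p = 0.00658 and 0.000404), without overlap at either age. The stellate, fibroblast and, at 12w, endothelial marker sums given above move in the same direction as Syt11, Syt17, Rab3b and Rab3c. So do, at 12w, the sums of duct markers (650 to 947 CPM in Tg7, 356 to 565 in Wt). The same holds at 12w for Schwann and neural markers (21.1 to 26.2 and 9.13 to 19.3). Lymphocyte and mast cell sums were higher in Tg7 islets at both ages. They were 46.5 to 80.9 CPM against 22.5 to 32.7 at 2w, and 21.7 to 28.97 against 14.5 to 17.4 at 12w. PP cell sums were higher at 2w (7695 to 11449 CPM against 4260 to 6465), as were acinar sums (21.2 to 29.9 against 9.67 to 11.8). Both overlapped between genotypes at 12w. The β-cell marker sums move in the direction of Sytl4, Rims3, Syt4, Doc2b and Unc13b. The part of these cell types in the results was not tested.

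A further 3 synaptotagmins of low level were called at 12w. Syt14 measured 4.92, 2.62 and 25.1 CPM in Wt and 1.69, 1.99 and 3.32 in Tg7 islets, so the groups overlap and the mean of the Wt group rests on its library 4. Its log2 fold change was −2.24 ± 0.64 (adjusted p = 0.0218) with that library and −0.66 (adjusted p = 0.286) without it. Syt6 measured 1.26, 1.27 and 0.867 CPM in Wt and 4.91, 2.43 and 5.15 in Tg7 islets (1.89 ± 0.63, adjusted p = 0.0446). Syt15 measured 0.630, 0.238 and 0.533 against 2.65, 1.22 and 1.14 (1.86 ± 0.60, adjusted p = 0.0374). The calls of Syt6 and Syt15 were lost in 9 and 8 of 21 other settings, among them leaving out any Wt library at 12w. Syt13, the member with the highest level per kilobase in every group, measured 658, 594 and 619 CPM in Wt and 457, 461 and 434 in Tg7 islets at 2w, without overlap but not called (−0.47 ± 0.18, adjusted p = 0.113). It was called in 4 of 21 other settings, among them without the Wt library 4 at 12w (adjusted p = 0.00406). Syt7, the high-affinity calcium sensor best known from insulin granules, measured 416, 407 and 427 against 326, 374 and 332 at 2w (−0.28 ± 0.10, adjusted p = 0.106), and without that library it was called (adjusted p = 0.044). At 12w Syt7 measured 423, 417 and 418 in Wt and 435, 413 and 407 in Tg7 islets (−0.003 ± 0.10, adjusted p = 0.989). The other synaptotagmin and Doc2 genes, Syt1, Syt2, Syt3, Syt12, Syt16, Doc2a and Doc2g, were not called at either age. Their largest group mean was 18.2 CPM.

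Munc13 proteins prime docked granules for fusion. Unc13b (chr4:43071825-43277745, plus strand) measured 79.6, 103 and 95.8 CPM in Wt and 59.8, 53.3 and 55.2 in Tg7 islets at 2w, and 78.5, 81.4 and 76.9 against 61.6, 57.6 and 60.2 at 12w. The groups did not overlap, with log2 fold changes of −0.72 ± 0.11 (adjusted p = 0.00129) and −0.40 ± 0.11 (adjusted p = 0.0214). With library size alone the 12w value was 0.044 and not called. That call was also lost with upper-quartile factors, with no filter, and when Tg7 library 1, 2 or 3 at 12w was left out. Unc13a fell at 2w from 168, 166 and 198 to 87.9, 128 and 110 CPM (−0.71 ± 0.17, adjusted p = 0.0189). That call was lost with library size alone, without Wt library 3 or without Tg7 library 1 or 3 at 2w (largest adjusted p 0.0937). At 12w it measured 135, 172 and 105 against 106, 102 and 109, which overlap (−0.38 ± 0.17, adjusted p = 0.128), and without the Wt library 4 it was −0.54 and called (adjusted p = 0.0181). Unc13d held at most 7.94 CPM and was not called.

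Munc18 proteins bind syntaxins, and the tomosyns compete for them. Munc18c (Stxbp3a), the partner of syntaxin-4, measured 39.6, 45.3 and 61.1 CPM in Wt and 32.3, 34.4 and 35.7 in Tg7 islets at 12w (log2 fold change −0.52 ± 0.15, adjusted p = 0.0197), and −0.31 (adjusted p = 0.0539) without the Wt library 4. Tomosyn-2 (Stxbp5l), known as an inhibitor of insulin secretion, measured 12.4, 7.54 and 22.1 in Wt and 3.95, 5.42 and 4.46 in Tg7 islets at 12w (−1.61 ± 0.35, adjusted p = 0.00478), and −1.08 (adjusted p = 0.0206) without that library. Stxbp2, Stxbp4, Stxbp5 and Stxbp6 lay between −0.16 and 0.07 on the log2 scale at both ages. The 12w call of Stxbp3a was kept under 13 of 21 other settings. It was also lost with library size alone, with each age alone, with a replicate block and when Tg7 library 1, 2 or 3 at 12w was left out.

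The genes of the 3 SNARE proteins named above for the secretory complex, Stx1a, Snap25 and Vamp2, were not called. Syntaxin-1A (Stx1a) measured 43.4, 41.6 and 46.6 CPM in Wt and 43.0, 43.8 and 41.7 in Tg7 islets at 2w, and 24.8, 39.9 and 21.6 against 26.3, 23.5 and 29.1 at 12w (−0.03 ± 0.18 and −0.13 ± 0.19, adjusted p = 0.926 and 0.672). Snap25 measured 149, 188 and 203 against 137, 158 and 143 at 2w, and 266, 211 and 173 against 301, 286 and 279 at 12w, where the groups did not overlap (−0.30 ± 0.16 and 0.41 ± 0.16, adjusted p = 0.235 and 0.071). Vamp2 measured 185, 180 and 219 against 167, 169 and 165 at 2w, where the groups did not overlap (−0.22 ± 0.12, adjusted p = 0.269). At 12w it measured 190, 220 and 233 against 211, 178 and 175 (−0.19 ± 0.12, adjusted p = 0.302). These 3 transcripts thus did not pass the main test at either age, and a value short of the threshold does not show equal levels. The 12w value of Snap25 was called in 2 of 21 other settings. These were library size alone (0.88, adjusted p = 0.000731) and leaving out Wt library 1 at 12w. Stx4a, Snap23, Vamp3 and Vamp8, also known for regulated secretion, had log2 fold changes of −0.17, −0.24, −0.26 and 0.13 at 2w and of −0.07, −0.23, −0.17 and 0.14 at 12w, none of them called. At 2w the Tg7 libraries lay below all Wt libraries for Stx4a and Vamp3. With library size alone Vamp8 was called at 12w (0.60, adjusted p = 0.00952). Snap29, Vamp1, Vamp5, Stx2 and Stx11 were not called either.

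**Figure D4:**
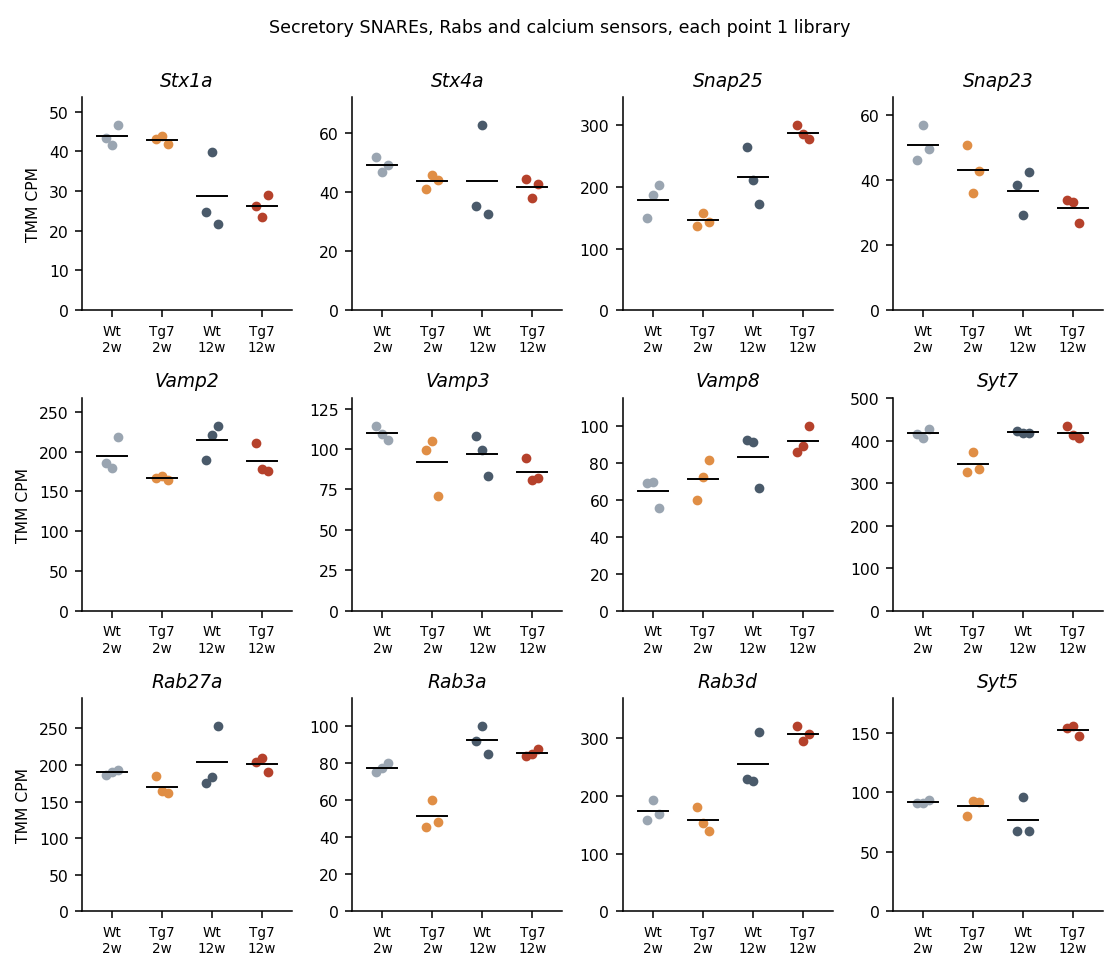
CPM of 12 members known for regulated secretion, 1 point per library on linear axes from 0, with a bar at the mean of 3 libraries. The Tg7 and Wt points overlap at 12w for Stx1a, Stx4a, Snap23, Vamp2, Vamp3, Vamp8, Syt7, Rab27a, Rab3a and Rab3d and are apart for Snap25 and Syt5.

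Other SNAREs were called at 12w. Syntaxin-3 (Stx3), linked to the fusion of newly arriving granules, measured 104, 89.7 and 81.1 CPM in Wt and 55.4, 52.0 and 53.3 in Tg7 islets (−0.78 ± 0.12, adjusted p = 0.000455). Vamp4, a SNARE of the trans-Golgi network, measured 101, 104 and 94.5 against 62.2, 60.03 and 64.0 (−0.68 ± 0.14, adjusted p = 0.00265), while at 2w it was 0.12 ± 0.14 (adjusted p = 0.63). The difference between ages was −0.80 ± 0.19 (adjusted p = 0.0696). Neither gene overlapped between groups at 12w, and both calls were lost with library size alone (adjusted p = 0.055 for Stx3 and 0.213 for Vamp4).

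Among the syntaxins of the endoplasmic reticulum, Golgi and endosomes, 3 of 8 were lower at 12w and none at 2w, beside 11.2% and 4.55% of all tested genes. Stx18, of the endoplasmic reticulum, measured 49.5, 37.9 and 42.5 in Wt and 32.5, 30.2 and 28.8 in Tg7 islets at 12w (−0.50 ± 0.13, adjusted p = 0.0144). Stx5a, of the Golgi, measured 193, 159 and 103 against 92.3, 105 and 99.3, which overlap (−0.61 ± 0.18, adjusted p = 0.0245). Stx16, of the trans-Golgi network, measured 54.2, 95.3 and 50.4 against 43.5, 48.7 and 38.3 (−0.62 ± 0.21, adjusted p = 0.0449). Stx18 overlaps Nsg1 on the opposite strand. The calls of all 3 were lost with library size alone, where their log2 fold changes were −0.048 (Stx18), −0.13 (Stx5a) and −0.17 (Stx16). The Stx16 call was kept under 7 of 21 other settings, the Stx5a call under 13 and the Stx18 call under 18, the other losses of Stx18 being without Tg7 library 2 or 3 at 12w. Stx6, Stx7, Stx8, Stx12 and Stx17 were not called.

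The direction of the members can be set beside the seed matches shown above. Of the 17 members with a match, 1 fell (Doc2b) and 2 rose (Rab3c, Syt11) at 2w, and 1 fell (Doc2b) and 5 rose (Rab3b, Rab3c, Syt6, Syt11, Syt15) at 12w. Of the 47 members without a match, 7 fell and 0 rose at 2w, and 13 fell and 3 rose at 12w. The median log2 fold change was 0.06 with and −0.17 without a match at 2w, and 0.27 and −0.13 at 12w. Over all tested protein-coding genes these medians were −0.03 with and 0.04 without a match at 2w, and −0.08 and −0.01 at 12w, and 15.9% of the 3589 genes with a match were lower at 12w against 10.6% of the 10814 without. Of the same genes, 430 with and 1444 without a match were higher at 12w, and at 2w 222 and 479 were lower and 196 and 738 higher. No test was made of these sets.

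**Figure D5:**
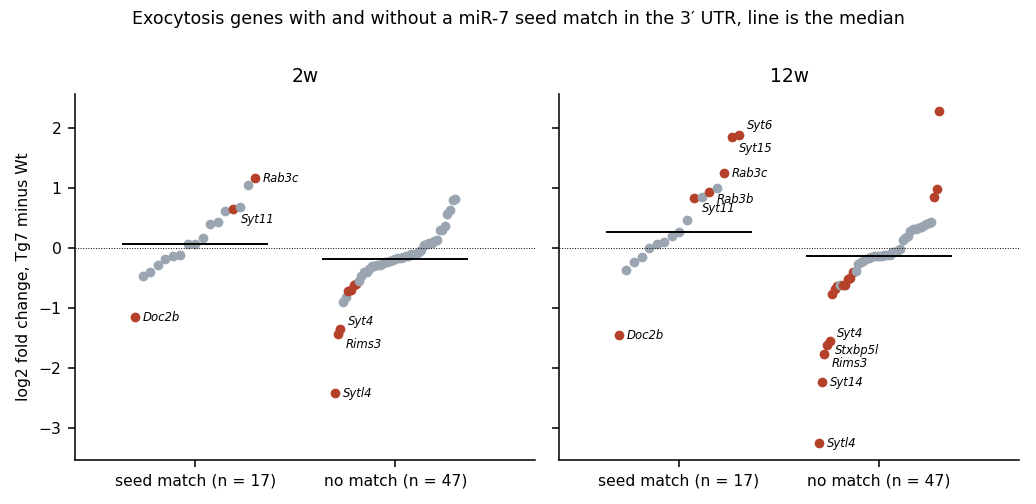
Log2 fold change of Tg7 minus Wt islets for the 64 members with an annotated 3′ UTR, split by whether it holds a miR-7 seed match, at 2w and 12w. Each point is 1 gene, red points are called at adjusted p under 0.05, and lines are medians. Doc2b is the called gene below 0 among those with a match, at −1.15 and −1.45, and Sytl4 lies lowest among those without.

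Another 78 genes of exocytosis were tested. They came from lists of complexins and SNARE disassembly factors, docking and Rab partners, exocyst subunits, vesicle membrane proteins and further SNAREs. The last list also held Snap91, which does not encode a SNARE. Of the 78 genes, 3 rose and 7 fell at 2w, and 10 rose and 13 fell at 12w. The shares called, 12.8% and 29.5%, are near the 10.6% and 23.6% of all tested genes. Their median log2 fold change was −0.09 at 2w and −0.10 at 12w. The count at 2w was 22 without the Wt library 4 at 12w and 4 without Wt library 2 or 3 at 2w, and that at 12w was 13 without Tg7 library 1 or 2. By list at 12w, 3 of 11 complexins and disassembly factors rose and 2 fell, and 3 of 26 docking and Rab partners rose and 4 fell. Of 10 exocyst subunits 2 fell, and of 17 vesicle membrane proteins 2 rose and 2 fell. In the last list, 2 of 14 genes rose (Snap47 and Snap91) and 3 fell. Mlph encodes melanophilin, a Rab27 effector that recruits myosin. It was the gene of these lists with the largest decrease, from 5.63 ± 0.60 CPM (SD, n = 3) in Wt to 0.726 ± 0.35 in Tg7 islets at 2w, and from 17.2 ± 5.43 to 0.354 ± 0.26 at 12w. Its log2 fold changes were −2.91 ± 0.45 (SE, adjusted p = 0.00109) and −5.56 ± 0.50 (adjusted p = 5.22e-06). Its 3′ UTR held 5 seed matches, 1 of them an 8mer, which is shown for comparison with the members.
Mlph (8mer, chr1:92847608-92847615, plus strand): catcagggGTCTTCCAcacctctg
Exph5, which encodes another Rab27 effector, was also lower at 12w, at 10.8 ± 0.83 CPM in Tg7 and 30.9 ± 23.7 in Wt islets (−1.52 ± 0.40, adjusted p = 0.0142), and its annotated 3′ UTR of 11 bases held no match. Syn2, a synapsin of the vesicle surface, fell by 1.09 at 2w and by 0.60 at 12w on the log2 scale (adjusted p = 0.00137 and 0.0219). On the upper side, Bzrap1, which encodes a RIM-binding protein, rose by 1.65 and 1.43 on the log2 scale (adjusted p = 0.000151 and 0.000136), and its 3′ UTR held 2 matches of the 7mer-A1 kind. At 12w the β- and γ-synuclein genes Sncb (1.49, adjusted p = 5.95e-05) and Sncg (2.75, adjusted p = 0.0174), the liprin gene Ppfia2 (1.599, adjusted p = 0.00183) and the synaptogyrin gene Syngr3 (1.26, adjusted p = 0.00478) were also higher. In the lists no other called gene reached a log2 fold change of 1 in size.

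Between 2w and 12w, 11 members changed in Wt islets, 7 up and 4 down, beside a background of 15.8% of tested genes (7.9% up and 7.91% down). The rise of Syt4, from a mean of 128 ± 27.7 to 359 ± 62.9 CPM (SD, n = 3), was the largest among these 7 (log2 fold change 1.48, adjusted p = 0.000116). Stxbp6, which encodes the SNARE-binding protein amisyn, rose by 1.31, Vamp4 by 0.94, Sytl1 by 0.76, Rab3d by 0.56, Stx18 by 0.54 and Stx3 by 0.52. Syt15 fell by 2.93, Syt17 by 1.32, Stx2 by 0.72 and Stx1a by 0.61. With library size alone the split was 3 up and 19 down, and with upper-quartile factors 7 and 7, so the balance of directions with age depends on the scaling. Without the Wt library 4 or 2 at 12w, 21 and 17 members were called, and without Wt library 2 or 3 at 2w 7 were.

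In Tg7 islets 16 members changed with age, 11 up and 5 down, beside a background of 13% (7.02% up and 6.01% down). Syt4 rose there as well, from 50.1 ± 5.38 to 122 ± 17.1 CPM (log2 fold change 1.29, adjusted p = 0.000448), and reached the range of the Wt islets at 2w (97.96 to 152 CPM). Stxbp6 rose by 1.31, Sytl1 by 1.17 and Rab3d by 0.97, and Syt15 and Stx1a fell by 1.76 and 0.71, so these 6 genes were called in 1 direction in both genotypes. The other genes that rose were Syt2, Syt3, Syt5, Rab3a, Rab3b, Snap25 and Stx12, by 0.38 to 1.61, and those that fell were Stxbp5l (2.03), Sytl4 (1.10) and Stx16 (0.68). Sytl4 thus went from a mean of 68.1 ± 24.1 to 31.7 ± 2.84 CPM in Tg7 islets (adjusted p = 0.00806), and from 364 ± 43.0 to 303 ± 97.1 in Wt islets (adjusted p = 0.47). The difference between these changes was not called (−0.84 ± 0.33, adjusted p = 0.27).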

How the data were processed

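Paired-end libraries of 12 islet RNA pools had been made with a NEB Ultra II kit. The authors trimmed the reads with Trimmomatic, aligned them to mm9 (NCBIM37) with TopHat2 2.0.11 and deposited raw counts per Ensembl gene from featureCounts, without normalization. The labels also name bcl2fastq 2.20.0. The sources used here do not give the strand setting.

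Genes were filtered with filterByExpr (minimum count 10, minimum total 15), which kept 15961 of 37991. Counts were fitted in edgeR 4.0.16 (R 4.3.3) with TMM factors, group means in 1 model, glmQLFit and glmQLFTest. Benjamini-Hochberg adjusted p values under 0.05 were called. The standard error was taken as |log2 fold change| / sqrt(F). The scripts were tested on simulated data. DESeq2 1.42.0, other scalings and filters, each age alone, a replicate block and each library left out were alternatives. Levels per kilobase used the union of annotated exons, and 37205 genes matched the annotation.

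The members, roles and other gene lists were chosen with earlier results of these data known. Named were each called member, the members known for endocrine secretion, and called pathway genes with a log2 fold change of at least 1 in size. The values of 2 members are not reported here, although the counts include them. No sequence is shown for Syt4 and Rab27b. Figures used Python 3.11.15 and matplotlib 3.10.9.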

Additional observations from a re-analysis of the deposited data

Results flagged for a closer look

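Syt5 was singled out because its response to the genotype differed between ages by the test of the difference itself. The log2 fold change of Tg7 over Wt islets was −0.06 at 2w and 0.98 at 12w, a difference of 1.05 ± 0.19 (edgeR adjusted p = 0.0175), and the 3 Tg7 libraries at 12w lay above the other 9 libraries. Groups of 3 libraries were too small for the check on single libraries that stand apart.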

How the results depend on the processing

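Of 35 calls of named members, 19 were kept in every alternative and 16 were lost in at least 1. Of 30 results of core members that were not called, 11 were called in at least 1 alternative and 17 changed sign in at least 1, so the direction of those near 0 is not settled. The cause was not tested. Depth limits the lowest members: Rims4 held 155 counts in all.

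At 2w the number of called members was 11, and 19 with DESeq2 on each age alone. The difference between ages was called in 1 member, and in 2 with library size alone and 2 with DESeq2 on all 12 libraries. The change with age in Wt islets was called in 11, and in 22 with library size alone. Of the other exocytosis genes 10 were called at 2w, and 19 with edgeR and 26 with DESeq2 on each age alone. No share of all tested genes was counted beside these alternatives or those below.

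The replicate block gave 17 members at 2w, 4 for the difference between ages, 18 for the age change in Wt islets and 19 other exocytosis genes at 2w. Same-numbered Wt and Tg7 libraries deviated from their group means with correlations of −0.0214, −0.167 and −0.0343 (2w) and of −0.0894 and −0.0112 (12w). No Wt library correlated best with the Tg7 library of its own number. With 3 libraries per group these values cannot decide whether the numbers pair the samples. Under the block, log2 fold changes of opposite sign at 12w were 0.0035 for Syt7, 0.19 for Rab27a, 7.2e-05 for Rims2 and −0.029 for Vamp8.

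With each library left out in turn, the members called ranged from 8 to 17 at 2w, from 16 to 23 at 12w, from 0 to 5 for the difference between ages, from 7 to 21 for the age change in Wt and from 10 to 22 in Tg7 islets. Other exocytosis genes ranged from 4 to 22 at 2w and from 13 to 28 at 12w. Most of the upper ends came without library 4 of the Wt islets at 12w, which gave 17 members at 2w. Log2 fold changes that crossed 0 ranged at 12w from −0.020 to 0.018 for Syt7, −0.14 to 0.17 for Rab27a, −0.95 to 0.0038 for Rims2, −0.31 to 0.18 for Stx1a and −0.24 to 0.29 for Stx4a, and at 2w from −0.10 to 0.0022 for Syt5 and −0.076 to 0.0069 for Stx1a.

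With library size alone, log2 fold changes of opposite sign at 12w were 0.045 for Syt13, 0.44 for Syt7 (called), 0.41 for Rab27a, 0.34 for Rab3a, 0.071 for Unc13a, 0.044 for Unc13b, 0.31 for Stx1a, 0.38 for Stx4a, 0.21 for Snap23, 0.24 for Vamp2 and 0.28 for Vamp3. At 2w they were 0.10 for Syt5, 0.068 for Syt9, 0.012 for Rab27a, 0.026 for Rab3d and 0.13 for Stx1a. Upper-quartile factors gave 0.085 for Syt7, 0.080 for Rab27a and 0.014 for Stx4a at 12w and 0.022 for Stx1a at 2w. The stricter filter gave 0.019 for Syt7 and 0.0055 for Rab27a, and no filter 0.0058 for Syt7, all at 12w.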
